A study of Mus musculus with 6 samples.

Results

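Between day 3 and day 4 of embryoid body differentiation, untreated A2.miR200c mouse ES cells differed most in transcripts of the primitive streak and of the mesoderm and endoderm that arise from it, which were higher on day 4, while Oct4 and Nanog transcripts were level. The comparison rests on 2 of the 6 Affymetrix MOE430 2.0 arrays of the series, the array of untreated day 3 and the array of untreated day 4, with 1 array for each. A2.miR200c is a line made from A2lox cells by Cre recombination, and it carries miR-200c and miR-141 behind a promoter that doxycycline switches on. The untreated cultures carry this element too but received no doxycycline, so the day 3 and day 4 groups share the line and the insertion and differ in 1 day of culture. The cells had been kept on irradiated embryonic fibroblasts with leukemia inhibitory factor, were passaged once without the fibroblasts, and were then grown in suspension in Petri dishes in medium with 10% fetal calf serum. A further array, from day 3 cultures given 500 ng/mL doxycycline from day 2, gives a scale for the difference between cultures of the same day, and the untreated day 5 array gives the later level. There is no replicate within a day, so no test was possible and every difference below describes these arrays.

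An embryoid body is a ball of ES cells that differentiates in suspension and passes, in outline, through the early steps of the embryo. Cells first resemble the epiblast, the epithelium from which the embryo proper arises. Some then take on the program of the primitive streak, where Wnt, Nodal and BMP signals turn on T-box, homeobox and forkhead factors, cells lose epithelial junctions in an epithelial-to-mesenchymal transition (EMT), and mesoderm and definitive endoderm form.

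Transcript levels are given as the model-based intensity deposited for each probe set, a fluorescence value on a linear scale that can be set against the same probe set on another array but not against another probe set. Each gene was read from 1 probe set, and differences are day 4 minus day 3 on the log2(intensity + 50) scale, which damps the fold of genes near background. A background level of 36.8 was set from 76 genes for receptors of smell and taste, which these cells are not known to use. The median intensity of all probe sets was 36.47 on day 3 and 36.66 on day 4, and 49.8% and 49.9% of the probe sets were above background. Of 18193 genes with a probe set, 9997 passed a filter on low values (the highest of the 6 arrays at or above 80.1) and are called measured.

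Of the measured genes, 191 were at least 2-fold higher on day 4 (1.91% of those measured) and 146 were at least 2-fold lower (1.46%). Most of the transcriptome differed little: 8941 genes (89.4%) lay within 1.5-fold, and the median difference was -0.01. The upper side reached further than the lower. The largest positive difference was 5.50 and the largest negative one -2.22, and 50 genes were at least 4-fold higher against 4 that were at least 4-fold lower. Between the induced and the untreated day 3 arrays, 2 genes (0.02%) were at least 2-fold apart. They were Hprt, the purine salvage gene whose locus carries the inducible cassette in A2lox cells, with a difference of 2.60, and Sbsn, with -1.01. The SD of the differences over genes was 0.15 between the day 3 cultures and 0.44 between the days. Both comparisons use the untreated day 3 array. At the boundary, B3gnt5 was just inside 2-fold higher at 1.0003 and Lmo2 just outside at 0.99, while Gprc5b was just inside 2-fold lower at -1.0002 and Serpini1 just outside at -0.998.

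**Figure D1:**
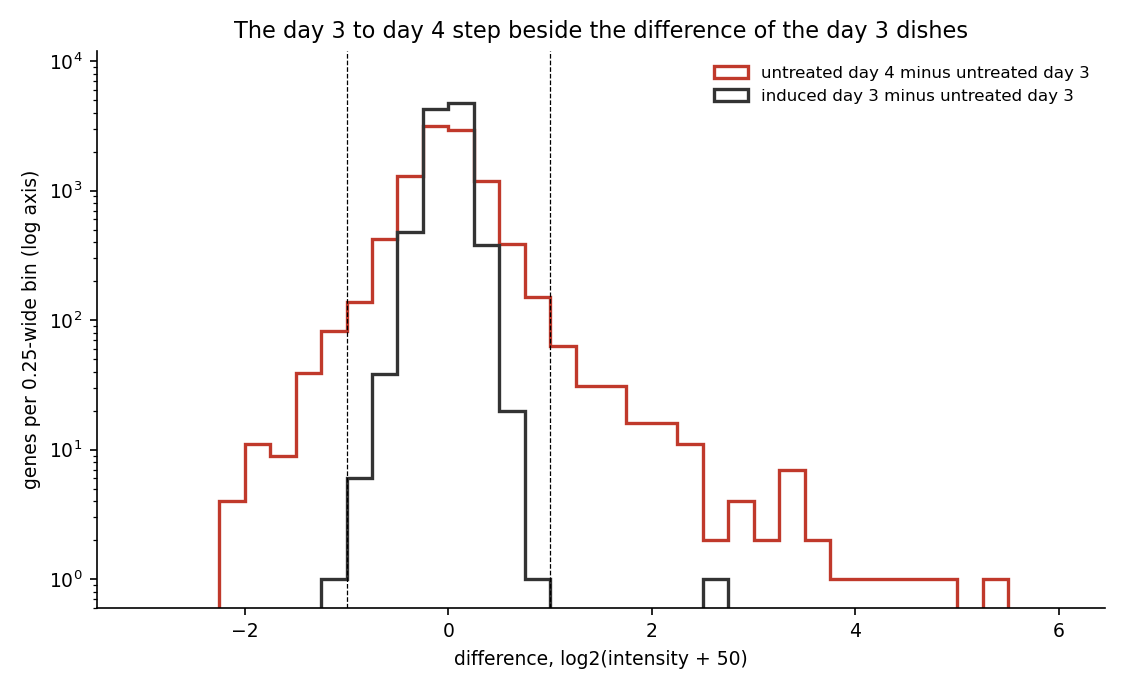
Number of measured genes (log axis) by difference on the log2(intensity + 50) scale, in bins 0.25 wide, for untreated day 4 minus day 3 (red) and for induced minus untreated on day 3 (black), 1 array each. Dashed lines mark 2-fold. The day step spreads from -2.22 to 5.50, while 2 genes of the day 3 cultures lie past the dashed lines, 1 on each side.

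The probe set of Aplnr, the apelin receptor of early mesoderm (Entrez Gene 23796), read 19.6 on day 3, below background, and 3089 on day 4, a difference of 5.50 or 45.1-fold. Lhx1, a LIM homeobox factor of the streak and its mesoderm, read 23.0 and 2208, 30.9-fold higher. Mixl1, a homeobox factor of streak cells, read 109.7 and 3606, 22.9-fold higher. These were the largest positive differences of the comparison. On the induced day 3 array the same probe sets read 17.9, 23.7 and 85.6, near their untreated day 3 values. The other Aplnr probe set above background was higher by less, 2.78 on the log2 scale, and that of Lhx1 by 3.85.

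The remaining genes of the 15 with the largest positive differences were of a few kinds. Cyp26a1 degrades retinoic acid. Cer1, Frzb and Dkk1 are secreted antagonists, Cer1 of Nodal, BMP and Wnt ligands and the other two of Wnt signals, and Rspo3 is secreted and strengthens Wnt signals. Sp5, Gsc and Evx1 are streak transcription factors. Cdh11 is a cadherin of mesenchyme, Kdr encodes the VEGF receptor Flk1 of mesoderm and endothelium, Pmp22 a membrane protein, and Adamts9 an extracellular protease. Their differences ran from 3.27 for Adamts9 (170.5 on day 3 and 2073 on day 4) to 4.27 for Cyp26a1 (64.1 and 2147). Among all genes at least 2-fold higher, 39 were below background on day 3, so their folds depend on the added 50. Other probe sets of the same gene, which read the same RNA again, lay above background for 96 of the higher genes, and for 90 of these they all pointed the same way. The size was not always alike. Among the 15 genes with the largest positive differences, each such probe set gave less than the one used. They gave 2.64 for Frzb, 1.68 for Dkk1, 1.41 for Cdh11, 1.18 for Cer1, and 0.59 and 1.64 for Adamts9. The ranking thus depends on the probe set used.

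**Figure D2:**
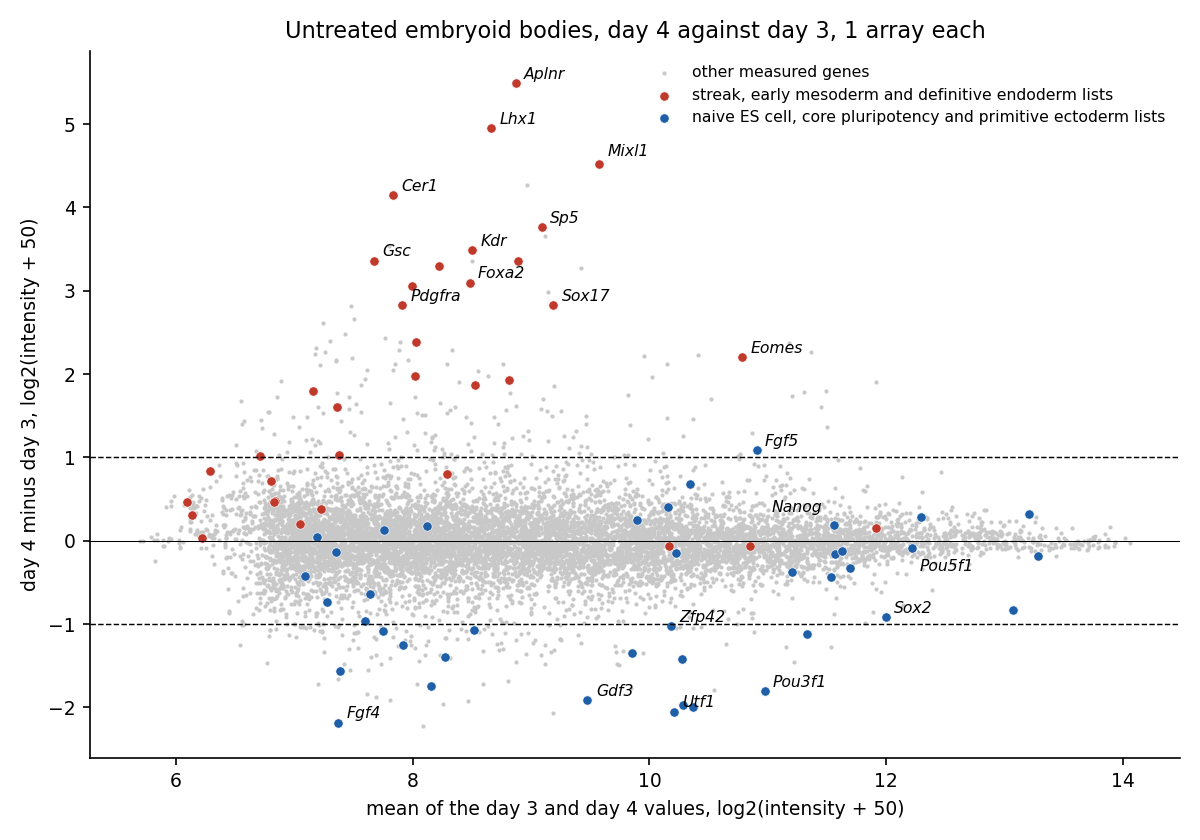
Difference between untreated day 4 and day 3 against the mean of both days for the 9997 measured genes (both axes log2(intensity + 50), 1 array per day). Red points are members of the streak, early mesoderm and definitive endoderm lists and blue points members of the naive ES cell, core pluripotency and primitive ectoderm lists. Dashed lines mark 2-fold. Red points reach 5.50 (Aplnr) and blue points reach -2.18 (Fgf4), with Pou5f1 and Nanog near 0.

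The transcription factors of the primitive streak made up many of these genes. Of 16 with a probe set, 12 were measured. T, which encodes Brachyury, was on the list of 17 but had no probe set with 1 symbol and could not be read. Against 1.91% of all measured genes, 10 of these 12 were at least 2-fold higher and 0 lower, with a median difference of 3.08 (1.62 over all with a probe set, against -0.00 for all genes). The filter takes the highest of all arrays, so a gene near background on day 3 entered through the later arrays where it was high, and such counts and medians are a description only. Eomes, the T-box factor that acts early in the streak, was already well above background on day 3 at 769 and read 3729 on day 4, a difference of 2.21. On the induced day 3 array it read 499, -0.58 from the untreated one. Gsc, a homeobox factor of the anterior streak, read 13.6 and 605. Foxa2, a forkhead factor of the anterior streak and endoderm, read 72.0 and 995. Mesp1, a basic helix-loop-helix factor of the first mesoderm, read 38.1 and 684, and Evx1, of the posterior streak, 97.7 and 1465. The factors of the later paraxial mesoderm and tail were below or little above background on day 4. Tbx6 read 58.5, Msgn1 35.5 and Cdx4 8.34, and these genes did not pass the filter. Cdx2 read 23.3 and 98.6, 2.03-fold higher. As these are whole cultures, a greater share of streak cells and more RNA per cell cannot be told apart.

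Several streak genes are known Wnt targets, so promoter sequence was set beside these values. In RefSeq's windows of 300 bases (GRCm38.p6, 250 before to 50 after a start site), the core of the Tcf/Lef site, CTTTGAT on either strand, was in 3.73% of all 32851 windows and in at least 1 window of 241 of the 8161 measured genes that had any (2.95%). Of the streak list, 14 genes had a window and 4 held the motif (Foxa2, Sp5, Mesp1 and Msgn1). Of the genes at least 2-fold higher it was 9 of 146 (6.16%), and of those lower 4 of 112 (3.57%). The windows of the measured streak genes with a match are shown as examples, and all of them read much higher on day 4. The list holds known Wnt targets, so its share is not independent of the motif. Being higher was a trait of the list, 10 of 12 measured, and Evx1, whose window holds no match, differed by 3.36. Of the 15 genes with the largest positive differences, 11 had a window and 1 held the motif, Sp5. Capitals mark the motif in the strand of the gene, 5′ to 3′, and it starts at base 147 of the window in Sp5, at base 220 in Mesp1 and, as the reverse complement, at base 265 in Foxa2.
Sp5, chr2:70474673-70474972, plus strand: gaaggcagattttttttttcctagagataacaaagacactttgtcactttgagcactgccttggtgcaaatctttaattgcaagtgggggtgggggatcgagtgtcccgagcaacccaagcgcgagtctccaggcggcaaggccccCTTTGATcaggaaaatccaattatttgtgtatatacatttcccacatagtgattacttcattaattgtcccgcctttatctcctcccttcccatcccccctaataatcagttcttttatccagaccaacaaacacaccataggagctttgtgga
Mesp1, chr7:79793541-79793840, minus strand: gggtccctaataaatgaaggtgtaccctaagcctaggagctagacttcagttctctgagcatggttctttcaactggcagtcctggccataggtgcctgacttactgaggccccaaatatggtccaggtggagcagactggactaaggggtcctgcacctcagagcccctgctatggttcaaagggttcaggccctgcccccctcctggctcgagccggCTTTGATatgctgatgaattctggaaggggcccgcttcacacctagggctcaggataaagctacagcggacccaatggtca
Foxa2, chr2:148045415-148045714, minus strand: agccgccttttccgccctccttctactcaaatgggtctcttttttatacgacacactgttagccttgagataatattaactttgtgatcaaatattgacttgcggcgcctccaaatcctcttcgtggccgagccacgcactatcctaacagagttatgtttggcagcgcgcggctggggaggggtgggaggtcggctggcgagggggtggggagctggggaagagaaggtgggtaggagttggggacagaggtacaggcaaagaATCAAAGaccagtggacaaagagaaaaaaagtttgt
Of the other motifs searched, none of which contains this one, the T-box site GGTGTGA was in 4.79% of the higher genes against 3.80% of measured genes, and the octamer ATGCAAA in 9.82% of the lower genes against 4.02%. Of the 14 streak genes with a window, 3 held the octamer and 1 the T-box site. A share above that of measured genes was thus not particular to the Tcf/Lef motif in this short list.
Sp5, itself a Wnt target that encodes a zinc finger factor, read 98.0 on day 3 and 1955 on day 4. A match is only a stretch of letters and was not shown to be bound in these cells.

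Early mesoderm genes were the next group. Of 16 measured early mesoderm genes, 9 (against 1.91% of all measured genes, a share that also stands against the later list counts) were at least 2-fold higher and 0 lower (median 1.74, or 0.83 over all 20 with a probe set). Kdr read 58.1 and 1160.0, 11.2-fold higher. Pdgfra, the PDGF receptor of paraxial and cardiac mesoderm, read 40.3 and 591, 7.10-fold higher, while its 2 other probe sets above background were higher by less, 0.34 and 0.58 on the log2 scale. Gata6, a zinc finger factor of mesoderm and endoderm, read 63.8 and 546, and Isl1, a factor of cardiac progenitors, 80.3 and 465. The lateral plate factors Foxf1 and Hand1 were highest on day 5. Foxf1 read 13.0, 28.1 and 1172 on days 3, 4 and 5, and Hand1 read 73.7, 92.2 and 528.

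Blood, endothelium and heart genes were counted next. In the blood and endothelium list 1 of 12 measured genes was at least 2-fold higher and 9 lay within 1.5-fold. The higher gene was Etv2, the ETS factor that opens the hemangioblast program, with 149 on day 3 and 374 on day 4. Tal1, which follows it in blood formation, read 20.02, 24.9 and 389 on days 3, 4 and 5. The embryonic globin gene Hbb-bh1 read 7.12, 7.32 and 1600.4. Both were thus below background on days 3 and 4 and above it on day 5. Of the cardiac list, 2 of 7 measured genes were at least 2-fold higher, Isl1 (3.95-fold) and the cardiac actin gene Actc1 (135 and 500.1), with a list median of 0.62 and 3 within 1.5-fold, while Nkx2-5 read 44.2 and 38.1 and Tbx5 2.30 and 4.52.

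Definitive endoderm genes were higher alongside those of mesoderm. All 11 members with a probe set were measured, 6 were at least 2-fold higher and 0 lower (median 1.80). Among these 6, Gsc and Foxa2 are also on the streak list and Krt19 on the epithelial junction list. Lhx1 is likewise on both the streak and the early mesoderm list, so these lists are not separate sets. Sox17, the SOX factor that specifies endoderm, read 169 and 1502, 7.09-fold higher. Cxcr4, the chemokine receptor used to sort definitive endoderm, read 26.3 and 216, and Cer1 read 4.26 and 913. Foxa1 (47.0 and 84.7) and Hhex (187 and 363) differed by less than 2-fold. Sox17, Gata6 and Pdgfra are also on the extraembryonic endoderm list, where they were its 3 genes at least 2-fold higher of 15 measured. 1 gene of that list, Rhox5, was lower (1289 and 480.4), and 10 lay within 1.5-fold. Genes of visceral endoderm were on both sides of background. Afp read 19.3 and 11.5, Apoa1 9.32 and 10.1 and Hnf4a 23.0 and 15.7, all below background, and Ttr read 53.6 and 53.6 and did not pass the filter. Above background were Cubn and Amn, for the endocytic receptor cubilin and its partner (465 and 361 for Cubn, 127 and 88.7 for Amn), the endocytic adaptor gene Dab2 (233 and 175) and the apolipoprotein gene Apoe (3269 and 2734), each lower on day 4 by less than 1.5-fold. The part of extraembryonic endoderm in the Sox17 and Gata6 readings was not tested.

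**Figure D3:**
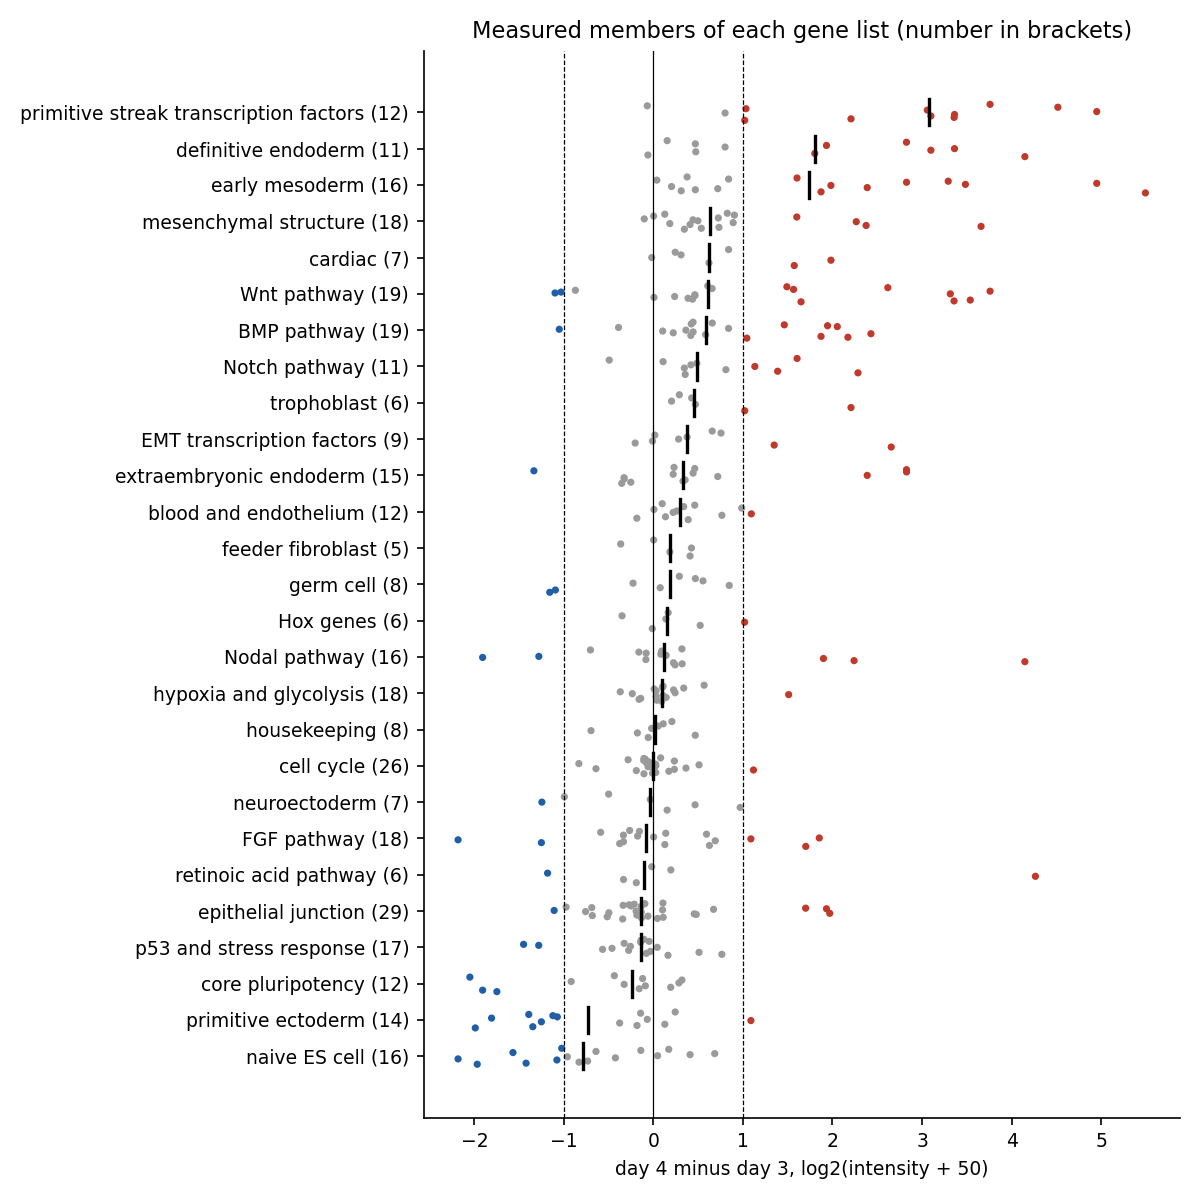
Difference between untreated day 4 and day 3 (log2(intensity + 50), 1 array each) for the measured members of 27 gene lists, ordered by median (black bar), with the number measured in brackets. Red points are at least 2-fold higher, blue points at least 2-fold lower and grey points in between. Some genes are on several lists and appear in each. Streak, endoderm and early mesoderm lists have the highest medians, 3.08, 1.80 and 1.74, and the naive ES cell list the lowest, -0.78.

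The pluripotency network was split. Pou5f1, which encodes Oct4, read 4858 on day 3 and 4560.0 on day 4, and Nanog, its partner, 2777 and 3181, differences of -0.09 and 0.19. Sox2, the third factor of this core, read 5581 and 2928, 1.89-fold lower. These markers of the labelled cell type were far above background on both days. Within the core list 3 of 12 genes were at least 2-fold lower and 0 higher, and 8 lay within 1.5-fold. Of all measured genes 1.46% were at least 2-fold lower, a share that also stands against the later counts of lower genes. Utf1, a chromatin factor of ES cells, read 2357 and 531, 4.14-fold lower. Gdf3, a TGF-beta family ligand, read 1330.2 and 318. Foxd3, a forkhead factor of the epiblast, read 472 and 105.

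The naive ES cell list held no higher gene. Of 16 measured, 6 (against 1.46% of all measured genes) were at least 2-fold lower and 0 higher (median -0.78, or -0.58 over all 20 with a probe set). Fgf4, the ES cell FGF ligand, read 302 and 27.5, below background on day 4, and was 4.54-fold lower. Dppa2 read 2417 and 580.2 and its neighbor in function Dppa4 1982 and 708. Zfp42, the naive marker Rex1, read 1603 and 763, 2.03-fold lower. Esrrb, an orphan receptor of the naive network, read 149.8 and 70.0, and Tfcp2l1 and Prdm14 were near or below background already on day 3, at 64.0 and 33.8. Lifr, the receptor for leukemia inhibitory factor, went the other way, with 972 and 1592, a difference of 0.68.

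The primitive ectoderm list holds genes of the epiblast after implantation. Of 14 measured, 7 were at least 2-fold lower (against 1.46% of all measured genes) and 1 higher, and 11 were below 0 (median -0.73). Pou3f1, the POU factor Oct6, read 3711 and 1024, 3.503-fold lower. Sox3 read 451 and 141, and the DNA methyltransferase gene Dnmt3a 1425 and 529.5. Fgf5, the standard marker of the epiblast, was the gene that was higher, with 1265 and 2746, 2.13-fold. Otx2 (1836 and 1748), Zic5 (825 and 985) and Dnmt3b (10582 and 9313), which act in the same tissue, lay within 1.5-fold.

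The largest negative difference of all was that of Rpl39l, a germ line paralog of the ribosomal protein gene Rpl39 whose probe set may share signal with it, which read 538 and 76.2, 4.66-fold lower. Tcf15, a basic helix-loop-helix factor of the epiblast, read 1145 and 234, 4.21-fold lower. The other genes of the 15 largest negative differences were Fgf4, Utf1, Dppa2, Gdf3 and Pou3f1 from the lists above, the germ line genes Mael, Dnmt3l and Dmrt1, the detoxification genes Cbr3, Nqo1 and Gclm, the transporter gene Abcc4, and Gm9564. Their differences ran from -1.77 for Abcc4 to -2.18 for Fgf4. Of all genes at least 2-fold lower, 13 were below background on day 4. Of 56 with other probe sets above background, 48 had all of them in the same direction, whatever the size of the difference. Among the list members at least 2-fold lower, Fgf4, Dnmt3a, Sfrp1 and Grhl2 had another probe set above background that pointed the other way, by 0.30 for Fgf4, 0.32 for Dnmt3a, 0.04 for Sfrp1 and 0.50 for Grhl2.

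The cadherins that exchange places in an EMT differed by unequal amounts. The probe set of Cdh2, which encodes N-cadherin of mesenchyme and mesoderm, read 969 on day 3 and 5238 on day 4, 5.19-fold higher. That of Cdh1, which encodes E-cadherin of epithelium, read 7232 and 7458, a difference of 0.04, and was lower on day 5 at 3963. Between the day 3 cultures the same probe sets differed by -0.11 and 0.09. Cdh2 was thus well above its day 3 level while Cdh1 was still at it.

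Among genes of mesenchymal structure 4 of 18 measured were at least 2-fold higher and 0 lower (median 0.63, or 0.41 over all with a probe set). They were Cdh2, Cdh11 (107 and 1929.6), the fibronectin gene Fn1 (1156 and 5749.9) and the PDGF receptor gene Pdgfrb (34.4 and 206). The intermediate filament gene Vim read 4189 and 7459, 1.77-fold higher. Its 2 other probe sets above background were higher by more, 1.22 and 1.47 on the log2 scale, past 2-fold. The other Pdgfrb probe set above background was higher by less, 0.18. The fibrillar collagen gene Col1a1 was below background on both days and read 2.22, 19.3 and 577 on days 3, 4 and 5.

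Of 9 measured EMT transcription factors, 2 were at least 2-fold higher, Snai1 and Six2. Snai1, the zinc finger repressor Snail, read 16.5 on day 3, below background, and 119 on day 4, 2.55-fold higher. Six2, a homeobox factor, read 22.4 and 406. The repressors that miR-200 targets, Zeb1 (131 and 256) and Zeb2 (43.7 and 97.6), differed by 0.75 and 0.66. The 1 other Zeb1 probe set above background was near level at -0.05, and the 3 of Zeb2 were higher by 0.12 to 0.60. Between the day 3 cultures Zeb1 differed by 0.01 and Zeb2 by -0.33. Snai2, which encodes Slug, was below background on day 4 at 29.9 and read 1304 on day 5, and Twist2 read 12.5 and 176.

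Epithelial junction genes differed little and in both directions. Of 29 measured, 3 were at least 2-fold higher, 1 lower and 20 within 1.5-fold, with 19 below 0 (median -0.14). The gene lower by 2-fold was Grhl2, a factor that maintains epithelium, which read 689 and 293, the gene whose other probe set above background pointed the other way. Ocln, the tight junction gene for occludin, read 428 and 193, 1.97-fold lower, and Cldn7 1044 and 631. The genes higher by 2-fold were all of desmosomes and keratin filaments. Dsp, for desmoplakin, read 476 and 2011, 3.91-fold higher. Krt19 read 181 and 831 and Krt8 767 and 2604. These also differed between the day 3 cultures, by 0.58 for Dsp, 0.35 for Krt19 and 0.45 for Krt8, with the induced array higher. A day of miR-200c and miR-141 induction and the spread between cultures cannot be told apart in this gap.

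Snail and Zeb repressors are known to act through the E-box CACCTG, whose reverse complement is CAGGTG, and this motif was common in the promoters of the epithelial list. Its letters can run into those of the T-box site, as GGTG is part of both. It was in 20.2% of all windows and in at least 1 window of 20.4% of the measured genes that had any, and in 15 of the 20 epithelial junction genes with a window (75.0%). Genes on this list are partly known from work on these repressors, so the share is not independent of the list. Of genes at least 2-fold lower 36 of 112 held it (32.1%), and of those higher 30 of 146 (20.6%). Base composition was not matched in these shares. Among the measured epithelial genes with a window, 10 of 14 with the motif and 2 of 4 without it were below 0. The windows of Epcam, Cldn7, Ocln and Krt8 are shown as examples, with the motif in capitals, because by the probe sets used the first 3 read lower on day 4 and Krt8 higher although all hold it.
Epcam, chr17:87635729-87636028, plus strand: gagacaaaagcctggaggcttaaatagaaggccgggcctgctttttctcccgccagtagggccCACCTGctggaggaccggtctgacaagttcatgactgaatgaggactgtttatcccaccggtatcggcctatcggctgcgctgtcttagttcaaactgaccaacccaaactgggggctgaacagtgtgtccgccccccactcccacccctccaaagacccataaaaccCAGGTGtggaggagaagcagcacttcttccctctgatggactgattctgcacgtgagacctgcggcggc
Cldn7, chr11:69965171-69965470, plus strand: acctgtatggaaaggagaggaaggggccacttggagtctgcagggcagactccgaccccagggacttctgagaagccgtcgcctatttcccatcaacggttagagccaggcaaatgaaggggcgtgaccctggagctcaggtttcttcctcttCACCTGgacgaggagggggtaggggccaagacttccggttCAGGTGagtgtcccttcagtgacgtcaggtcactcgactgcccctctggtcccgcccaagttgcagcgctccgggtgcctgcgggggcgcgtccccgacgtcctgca
Ocln, chr13:100552449-100552748, minus strand: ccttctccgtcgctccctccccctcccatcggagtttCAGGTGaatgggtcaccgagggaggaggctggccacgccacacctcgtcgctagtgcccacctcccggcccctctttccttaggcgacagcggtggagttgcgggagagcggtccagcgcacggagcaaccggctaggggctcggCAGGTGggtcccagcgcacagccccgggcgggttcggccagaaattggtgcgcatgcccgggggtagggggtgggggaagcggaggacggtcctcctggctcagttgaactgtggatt
Krt8, chr15:102004293-102004592, minus strand: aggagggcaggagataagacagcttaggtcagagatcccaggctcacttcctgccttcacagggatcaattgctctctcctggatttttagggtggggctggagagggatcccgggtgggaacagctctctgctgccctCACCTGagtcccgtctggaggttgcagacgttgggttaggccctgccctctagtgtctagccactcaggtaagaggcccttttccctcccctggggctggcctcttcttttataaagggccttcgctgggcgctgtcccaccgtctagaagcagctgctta
Epcam, an epithelial adhesion molecule that ES cells also use, read 3232 and 2274, a difference of -0.50, against 1.70 for Krt8, but the other Epcam probe set above background pointed the other way (0.38). Genes with the motif thus stood on both sides of 0.

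Signalling genes were counted by pathway. In the Wnt list 8 of 19 measured genes were at least 2-fold higher and 2 lower (median 0.61). Of the ligands, Wnt5a read 11.1 and 325, 6.14-fold higher, and Wnt5b 25.9 and 163, while Wnt3, the ligand that starts the streak in the embryo, read 32.5 and 72.9 and did not pass the filter. The enhancer Rspo3 read 44.0 and 886, 9.96-fold higher. Axin2, a feedback target that reports Wnt signalling, read 119 and 480.5, 3.13-fold higher. Secreted antagonists went both ways: Dkk1 (62.8 and 1106) and Frzb (15.4 and 709.6) were higher, and Sfrp1 (220.5 and 76.2) and Sfrp2 (1703 and 807) were the 2 genes that were lower. The receptor gene Tnfrsf19, itself a Wnt target, was higher (207 and 711), as was Sp5 above. The 2 other Tnfrsf19 probe sets above background were higher by less, 0.25 and 0.28 on the log2 scale. Nkd1 (39.3 and 73.1) and Lgr5 (10.3 and 33.1), also on the list, were less than 2-fold apart. Other receptor and nuclear genes were less than 2-fold apart, with the Frizzled gene Fzd7 at 1816 and 1824, Lef1 at 942 and 1118, and the repressor Tcf7l1 at 2493 and 1339.5.

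Nodal signalling genes were mixed. Of 16 measured, 3 were at least 2-fold higher and 2 lower (median 0.12). The ligand Nodal read 2219 and 2352 and its coreceptor gene Tdgf1, or Cripto, 8441 and 10535, both within 1.5-fold. The other coreceptor gene, Cfc1, was below background on day 3 at 16.5 and read 264 on day 4. Of the antagonists, Cer1 was higher, Lefty1 lower (4569.9 and 1852) and Lefty2 within 1.5-fold (2373 and 2623). Lefty1 and Lefty2 are close paralogs, so their probe sets may share signal. Fst, which encodes the activin antagonist follistatin, read 1955 and 7428, 3.73-fold higher.

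Of 19 measured BMP signalling genes, 7 were at least 2-fold higher and 1 lower (median 0.58). The ligand Bmp4 read 143 and 656 and Bmp2 27.0 and 297, 3.66-fold and 4.51-fold higher. The transducer Smad1 read 748 and 2148. Of the targets, the homeobox genes Msx1 (45.9 and 348) and Msx2 (48.9 and 331) were higher, Id1 (1020.0 and 1326) and Id3 (766 and 1410.0) differed by less than 2-fold, and Id2 (1670.0 and 779.6) was lower. The extracellular modulator Bmper read 43.8 and 455, 5.39-fold higher, while the antagonists Nog and Chrd read 4.78 and 51.1 on day 4 and did not pass the filter.

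FGF ligands differed in opposite directions. In the FGF list 3 of 18 measured genes were at least 2-fold higher and 2 lower (median -0.08). Fgf8, the ligand of the streak, read 259 and 1066, 3.61-fold higher, and Fgf5 was higher as well, while Fgf4 and Fgf15 (324 and 107) were lower. Receptors and feedback genes differed less, with Fgfr1 at 574 and 574 and Spry2 at 5220.0 and 4676, apart from the phosphatase gene Dusp4, which read 255 and 943. In the Notch list 4 of 11 measured genes were higher and 0 lower: the ligand genes Dll3 (96.1 and 662) and Jag1 (412 and 964) and the target genes Hes1 (514 and 1424) and Nrarp (138 and 523). The receptor genes Notch1, Notch2 and Notch3 lay within 1.5-fold. Of 6 measured retinoic acid genes the degrading enzyme gene Cyp26a1 was 19.2-fold higher and the receptor gene Rarg lower (864 and 353). The synthesizing enzyme gene Aldh1a2 did not pass the filter and was below background on both days (6.33 and 5.80).

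**Figure D4:**
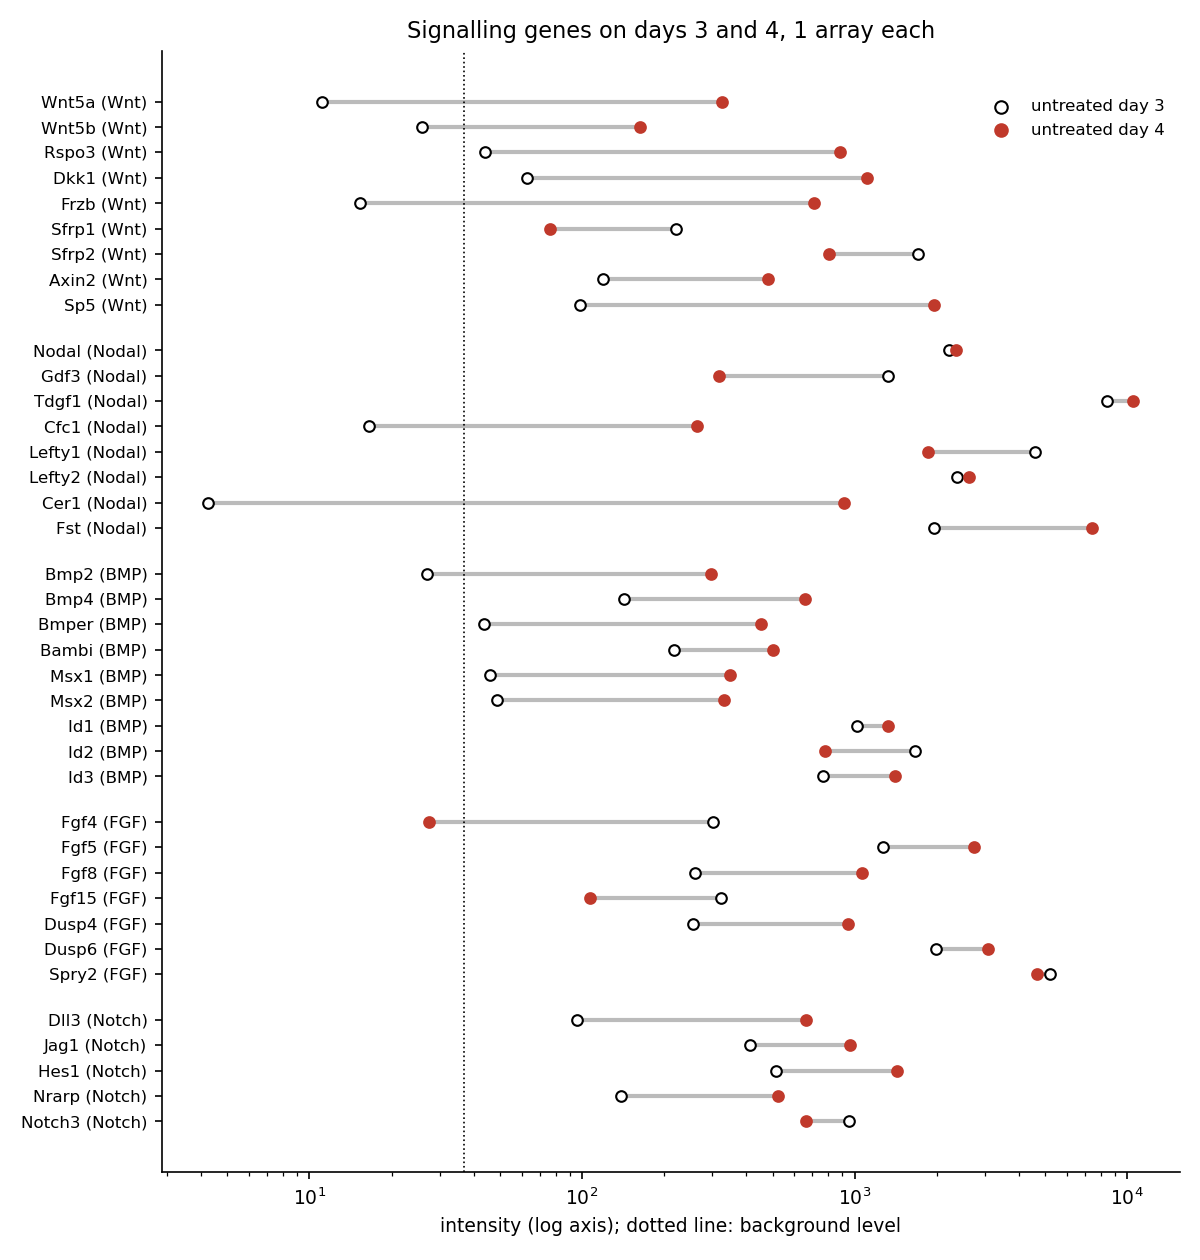
Intensity (log axis) on untreated day 3 (open circles) and day 4 (red circles), 1 array each, for genes of the Wnt, Nodal, BMP, FGF and Notch lists. The dotted line is the background level of 36.8, and levels of different genes are not comparable. Cer1 reads 4.26 and 913 and Fgf4 302 and 27.5, while Nodal reads 2219 and 2352.

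Other lineages were read from further lists. In the neuroectoderm list 7 of 15 genes were measured, 0 were at least 2-fold higher and 1 lower, with 4 within 1.5-fold. The lower gene was Sox1, the early neural SOX factor, at 93.0 on day 3 and 10.3 on day 4. On the induced day 3 array Sox1 read 57.0, -0.42 from the untreated one. Pax6 read 32.9 and 9.66 on days 3 and 4. Just short of 2-fold were Tubb3, for a neuronal tubulin (123 and 36.6), and Fabp7, of neural progenitors (118 and 278). Sox11, counted within 1.5-fold, read 2464 and 2403. Its 5 other probe sets above background were all higher on day 4, by 0.51 to 0.86 on the log2 scale. Of 24 Hox genes, 6 were measured and 1 was at least 2-fold higher, Hoxb2, which read 24.7, 101 and 1128 on days 3, 4 and 5. In the trophoblast list the genes at least 2-fold higher were Cdx2 and Eomes, which the streak uses too, and all 6 measured members were above 0. Elf5, Krt7 and Tpbpa were below background on both days, at 10.3, 17.5 and 21.5 on day 4. Tfap2c (110 and 146) and Hand1 (73.7 and 92.2) were above it on both days. In the germ cell list, of 8 measured, Ddx4 (501 and 208) and Dazl (143 and 36.5) were at least 2-fold lower and 0 genes were higher, while 5 were above 0. Of 11 feeder fibroblast genes, 5 were measured and none was 2-fold apart. The summed intensity of all 11 was 319 on day 3 and 343 on day 4. Of the markers, Lum read 14.5 and 11.1, below background, while Thy1 (42.5 and 32.1) and Dcn (58.7 and 34.8) were above it on day 3 only and Col1a2 (88.2 and 107) on both days. The part of feeder RNA in the results was not tested.

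Cell cycle, glycolysis and housekeeping genes differed little. Of 26 measured cell cycle genes, 23 lay within 1.5-fold (median -0.01). The one at least 2-fold higher was Ccnd2, for cyclin D2, at 385 and 893, and its 6 other probe sets above background were higher by 0.30 to 1.34 on the log2 scale. Of 18 hypoxia and glycolysis genes, 17 lay within 1.5-fold and Ndrg1 was 2.85-fold higher (113 and 413). In the p53 and stress list the metallothionein genes Mt1 (3501 and 1411) and Mt2 (3889 and 1391) were lower and no gene was 2-fold higher. Of 8 housekeeping genes none was 2-fold apart between the days, with Actb at 13706 and 13159.6. Hprt, at 234 and 125, is the gene of the list that was past 2-fold between the day 3 cultures, and it lies at the targeted locus of the line.

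The untreated day 5 array shows where these levels went next. Of the 191 genes at least 2-fold higher on day 4, 54 were a further 2-fold higher on day 5, 114 were within 2-fold of day 4, and 23 were at least 2-fold lower again. Of the 146 lower genes, 34 were a further 2-fold lower, 109 within 2-fold, and 3 higher again by 2-fold. Because both steps share the day 4 array, an error on that array would move a gene out and back, so a return on day 5 is not a second measurement. Gsc read 13.6, 605 and 180.5 on days 3, 4 and 5, Sp5 98.0, 1955 and 627, and Fgf8 259, 1066 and 283, each highest on day 4. Kdr read 58.1, 1160.0 and 3158, Bmp4 143, 656 and 2386, and Pmp22 45.2, 883 and 5540.2, each highest on day 5. Some genes that were level from day 3 to day 4 were lower on day 5. Pou5f1 read 1014 on day 5, Nanog 394, Nodal 444 and Otx2 339.8, all below their day 3 and day 4 readings. Fgf5, which had been higher on day 4, read 499 on day 5.

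**Figure D5:**
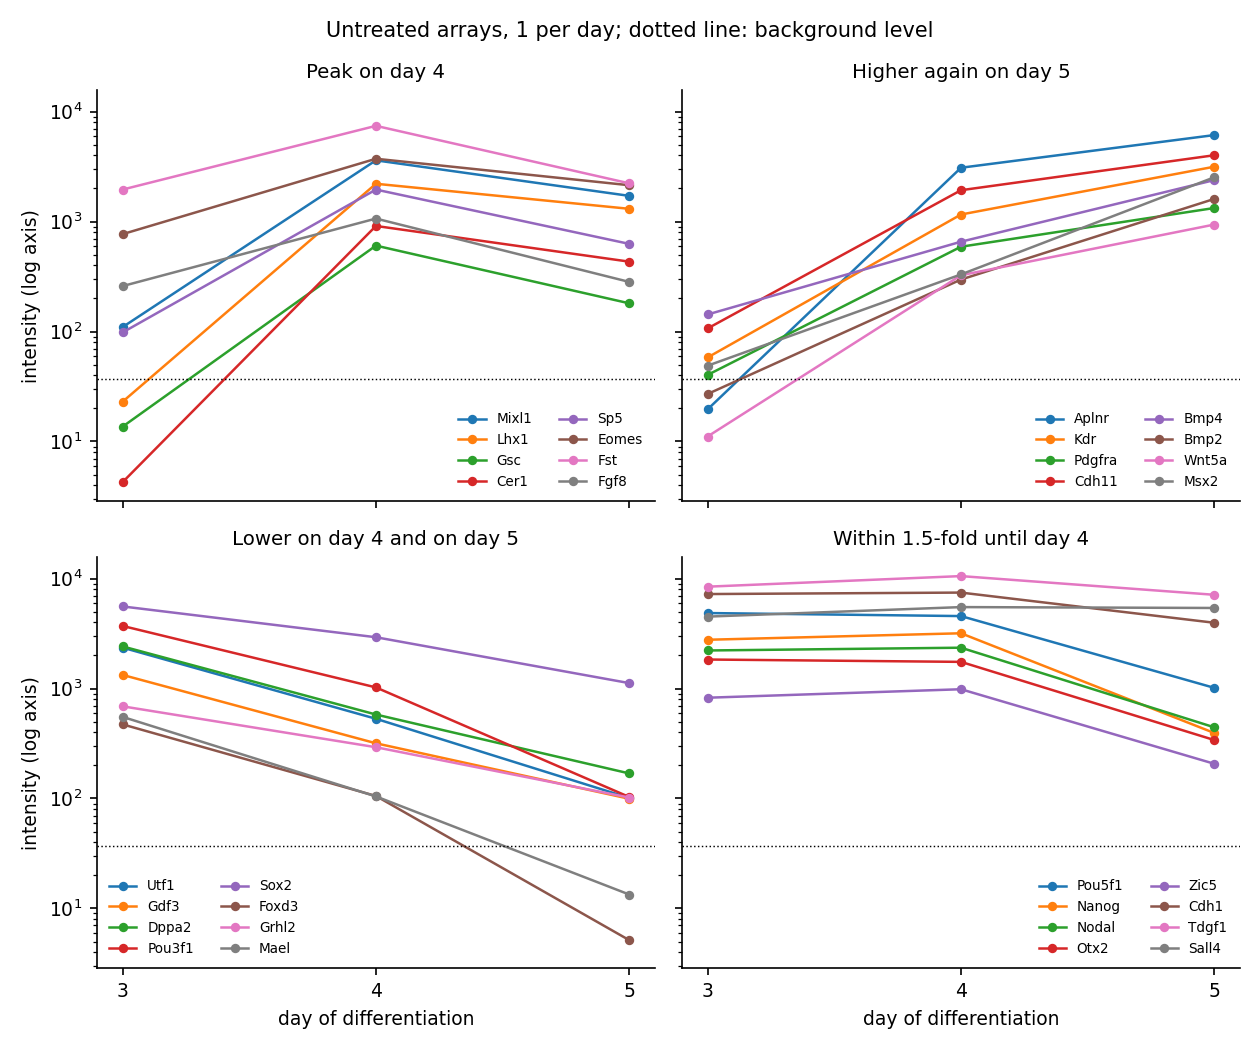
Intensity (log axis) of 8 genes per panel on untreated days 3, 4 and 5, 1 array per day, grouped by the course of their readings. The dotted line is the background level of 36.8, and levels of different genes are not comparable. Pou5f1 stays between 4560.0 and 4858 until day 4 and reads 1014 on day 5, while Aplnr reads 19.6, 3089 and 6124.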

How the data were processed

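Gene expression was measured on Affymetrix MOE430 2.0 arrays, 1 for each of untreated and doxycycline-induced cultures on days 3, 4 and 5. The authors normalised and modelled the arrays in dChip and deposited 1 model-based intensity per probe set and array. The dChip version, the baseline array and the detection calls are not given in the sources used here, and that the scale is linear was read from the values. The array medians ran from 34.51 to 36.94, with no further scaling here. How many cultures lay behind an array was not stated, and precision is limited by how few arrays there are.

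Probe sets were named through the platform annotation, in which 34945 of 45037 had 1 symbol, 932 several and 9160 none. A gene was read from that single-symbol probe set whose mean on all 6 arrays was highest, as log2(intensity + 50). Genes were kept where the highest of the 6 arrays reached 80.1, which left 9997 of 18193. A gene was counted as higher or lower at a fold of 2, with no test. The background level is the 95th percentile of the smell and taste receptor genes. Python 3.11.15 with numpy 2.4.6, pandas 2.3.3 and matplotlib 3.10.9 was used, and the counting was tested on simulated data. Promoter windows came from RefSeq (GRCm38.p6) and motifs were exact matches on either strand.

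The comparison and the 27 gene lists were chosen with earlier results of these data known. Genes named are the 15 with the largest differences in each direction, in each list at most 6 members that differed most, members that mark a pathway role, and genes the study discusses. The other list members named were chosen after their values were seen. Alternatives were other added constants, filters, folds, probe set choices and scalings.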

Additional observations from a re-analysis of the deposited data

How the results depend on the processing

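The counts of genes depended on the fold, the added constant and the choice of probe set. With an added constant of 16 in place of 50, 6 genes differed between the day 3 arrays, and list medians were 3.61 for primitive streak factors, 2.07 for early mesoderm, 0.50 for blood and endothelium, 1.16 for cardiac, 2.11 for definitive endoderm, 0.87 for mesenchymal structure, 0.90 for Wnt, 0.87 for BMP and 0.91 for trophoblast. With an added constant of 100, 87 genes were lower and 1 gene differed between the day 3 arrays, and list medians were 2.57 for primitive streak factors, 1.43 for early mesoderm, 0.37 for cardiac, 1.32 for definitive endoderm, 0.45 for Wnt, 0.42 for BMP and 0.26 for trophoblast. With no filter on low values, list medians were -0.58 for naive ES cell, 1.62 for primitive streak factors, 0.83 for early mesoderm, 0.12 for blood and endothelium, 0.28 for cardiac, 0.12 for extraembryonic endoderm, -0.0923 for germ cell, 0.41 for mesenchymal structure and 0.25 for trophoblast. With the filter set on the 2 untreated arrays alone, list medians were 2.39 for early mesoderm, 0.76 for blood and endothelium, 1.78 for cardiac, 0.31 for neuroectoderm, 0.84 for BMP, 0.65 for Notch, 0.0876 for retinoic acid and 0.29 for trophoblast. With the mean of all probe sets of a gene, 120 genes were higher, 94 genes were lower and 1 gene differed between the day 3 arrays, and list medians were -0.53 for naive ES cell, 0.91 for early mesoderm, 0.31 for cardiac, 0.15 for neuroectoderm, 0.26 for mesenchymal structure and 0.36 for BMP. With the probe set chosen by the 2 untreated arrays, the list median was 0.00167 for feeder fibroblast. At 1.5-fold, 547 genes were higher, 509 genes were lower and 29 genes differed between the day 3 arrays. At 3-fold, 82 genes were higher, 21 genes were lower and 1 gene differed between the day 3 arrays. Quantile normalization and centring on the median moved none of the counts of all genes or list medians past these limits. A list median counts as moved where it differs from that reported by more than the SD of the day 3 array differences. Of 86 named genes at least 2-fold apart, 0 changed sign over 8 alternatives. Most of these alternatives could not change a sign. The added constants and the filters keep it, and the median subtracted in centring was only -0.01. A sign could turn only with the probe set choices and quantile normalization. The small medians of the germ cell, neuroectoderm and retinoic acid lists turned sign where given above, so these lists have no settled direction. The cause was not tested. Leaving out a replicate was not possible with 1 array per group. No paired analysis was possible because each treatment and day has 1 array. Signal over background limits the folds of the 39 higher and 13 lower genes that were below background on the other day.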

Other observations

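The following groups were put together after the values were seen, so their counts describe these arrays only, and no explanation was weighed. Genes of the type that the antioxidant regulator Nrf2 is known to control were lower: of 11 measured, 5 were at least 2-fold lower (1.46% of all measured genes) and all 11 were below 0 (median -0.74). Nqo1, a quinone reductase gene, read 640.1 on day 3 and 132 on day 4. Gclm, for a subunit of the enzyme that starts glutathione synthesis, read 2726 and 754, and Cbr3, for a carbonyl reductase, 2587 and 614. Hmox1 and Txnrd1, other genes of this type, were near level, with 226 and 207 for Hmox1 and 5489 and 4880.2 for Txnrd1. A group of genes of germ line development, put together after some of them were seen to be lower, had 8 of 9 measured at least 2-fold lower, against 1.46% of all measured genes. It leaves out early germ cell genes of the germ cell list given above. Of that list, 5 of 8 measured genes were above 0 (median 0.18). Mael, of the piRNA pathway, read 553, 104 and 13.4 on days 3, 4 and 5, Dnmt3l, a cofactor of DNA methylation, 384 and 65.7 on days 3 and 4, and Dmrt1 347 and 57.7. Sycp3, of the synaptonemal complex, read 1289 and 793, less than 2-fold apart.

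On the higher side stood cues and receptors known for axon and vessel guidance, with 9 of 27 measured at least 2-fold higher (1.91% of all measured genes) and 0 lower (median 0.52). The receptor gene Nrp1 read 22.8, 357 and 3701 on days 3, 4 and 5, its partner gene Plxna2 67.0 and 477 on days 3 and 4, and the semaphorin gene Sema6d 27.4 and 295. In the TGF-beta group 3 of 9 measured genes were at least 2-fold higher, the ligand genes Tgfb1 (60.3 and 431) and Tgfb2 (20.1 and 286) and the coreceptor gene Tgfbr3 (92.6 and 422). Of 8 measured interferon-inducible genes, Irf1 for a transcription factor and the rest for GTPases, all were above 0 and 3 were at least 2-fold higher, Gbp2b, Gbp2 and Iigp1. Gbp2 read 136 and 710.5 and Gbp2b 158 and 858, but these paralogs may share probe signal. Of 9 measured genes for extracellular proteases, their inhibitors and the receptor Plaur, 1 was at least 2-fold higher, Adamts9. Apln, the ligand gene for the receptor with the largest difference, read 151, 1538 and 200.5 on days 3, 4 and 5, while the receptor gene Aplnr read 19.6, 3089 and 6124. The ligand reading was thus back near its day 3 value on day 5 and the receptor reading was not.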
